A study of Homo sapiens with 6 samples.

Results

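The enzymes of de novo purine synthesis were followed in PC-3 cells, an established human prostate cancer line, after treatment with GPNA or BenSer. The 10 genes were taken by name (PPAT, GART, PFAS, PAICS, ADSL, ATIC, ADSS, IMPDH1, IMPDH2 and GMPS) from tables of 19491 genes, and all 10 were listed with enough reads in every comparison. GPNA (L-γ-glutamyl-p-nitroanilide) and BenSer (benzylserine) are amino acid analogues that compete for uptake through ASCT2, the glutamine transporter encoded by SLC1A5. The authors reported that BenSer also lowered leucine uptake. They proposed effects of BenSer beyond ASCT2, citing its inhibition of LAT1, another amino acid transporter, in oocytes. Cells of all groups grew in RPMI 1640 medium with serum and were left without inhibitor (control) or were given 1 mM GPNA or 10 mM BenSer for 48 h, so the doses of the inhibitors differed. The question put to these libraries was how the genes that turn glutamine nitrogen into purines stood when glutamine uptake was inhibited.

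De novo synthesis builds the purine ring stepwise on phosphoribosyl pyrophosphate, ending at inosine monophosphate (IMP), from which separate branches lead to AMP and GMP. Glutamine donates nitrogen at the steps of PPAT, PFAS and GMPS, which are glutamine amidotransferases, and 10-formyl-tetrahydrofolate donates carbon at those of GART and ATIC. Proliferating cells rely on this pathway for nucleic acids and for ATP and GTP, and MYC is a known activator of several of its genes.

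Levels were given as CPM, reads of a gene scaled to the total of its library, and the 6 libraries named by the labels, 2 per group, held 23077986 to 32178154 reads, of which 51.6% to 52.7% lay on the listed genes. Within each group, the gap between the 2 libraries was hardly wider than the sampling of reads allows (chi-square per degree of freedom 1.05 to 1.06, against 5.50 to 20.7 between libraries of different groups). Nothing in the labels says that they came from separate cultures, and they were counted as 1 sample, so that no difference between groups has a replicate check and no p-value is given. The keratins KRT8, KRT18 and KRT19, markers of epithelium, had 289, 108 and 669 CPM in the control. None of the 3 leukocyte markers or of the 2 endothelial markers was listed, and of 3 fibroblast markers only COL1A1 was, at a mean of 3.73 to 5.57 CPM.

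Most of the pathway was lower in both treated groups, more so with BenSer. The summed level of the 10 genes was 873 and 858 CPM in the control libraries, 766 and 768 CPM with GPNA and 665 and 656 CPM with BenSer, so the mean changed by -11.4% with GPNA and by -23.7% with BenSer. With GPNA, both libraries lay below both control libraries for 9 of the 10 genes, and ADSS overlapped, where 34.4% of all genes and 50.1% of those with at least 10 CPM were lower in this sense. With BenSer they lay below the control for all 10, where 37.5% and 47.5% of genes did, although the counting interval of IMPDH1 included 0. In bulk RNA, fewer cells that express a gene and less of its RNA per cell cannot be told apart. CPM are shares of a library, so a change in total RNA per cell would not show.

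**Figure D1:**
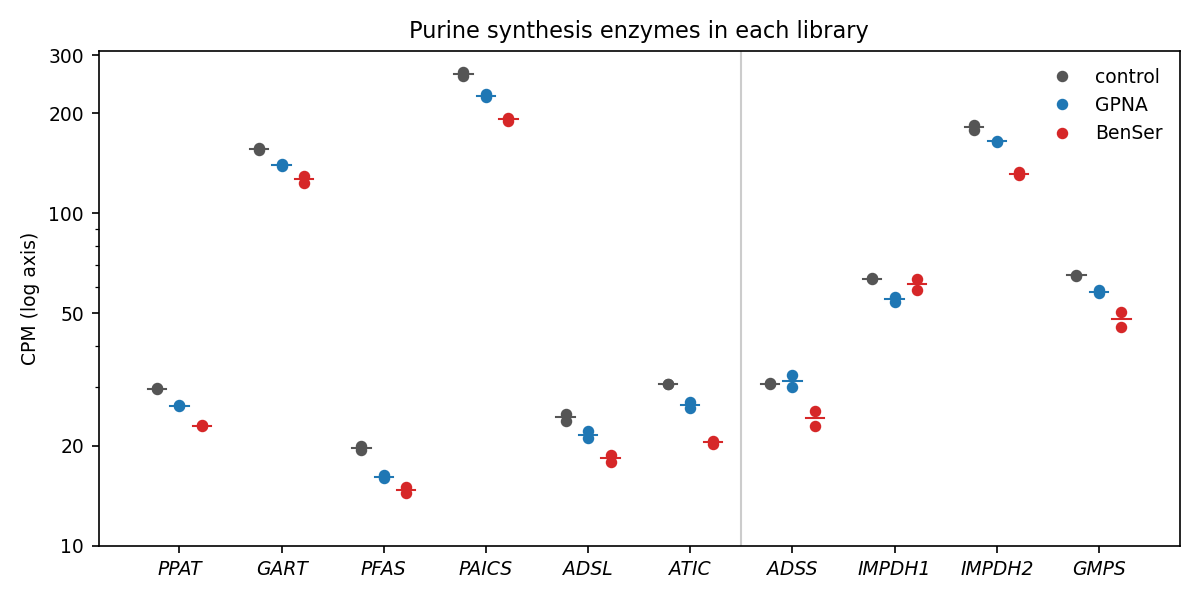
CPM on a log axis for each of the 10 genes, with 1 point per library (2 per group) and a bar at the group mean; genes of IMP synthesis stand left of the grey line and those of the AMP and GMP branches right of it. The points step down from control to GPNA to BenSer for most genes, whereas those of ADSS overlap between control and GPNA and those of IMPDH1 with BenSer (59.02 and 63.4 CPM) return close to the control.

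PPAT catalyses the committed step, the transfer of glutamine nitrogen to phosphoribosyl pyrophosphate. It had 29.5 and 29.8 CPM in the control libraries, 26.2 and 26.5 CPM with GPNA and 23.1 and 22.9 CPM with BenSer. The 3 groups did not overlap. Its log2 difference, taken between group means of CPM after adding 1 and given with an exact interval of 95% for counting error only, was -0.16 (-0.27 to -0.058) with GPNA and -0.35 (-0.46 to -0.25) with BenSer.

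PAICS encodes a bifunctional enzyme that adds carbon dioxide and then aspartate to the forming ring. It had 267 and 259.9 CPM in the control libraries, 224 and 229 CPM with GPNA and 194 and 190.3 CPM with BenSer, and the groups were again apart. The log2 difference was -0.22 (-0.25 to -0.18) with GPNA and -0.45 (-0.49 to -0.42) with BenSer. PAICS and PPAT lie side by side on chromosome 4 of GRCh37, with PAICS on the plus strand from 57301907 to 57330744 and PPAT on the minus strand from 57259528 to 57301781, and their start sites in the RefSeq table of GRCh38.p14 are 137 bases apart. Their changes did not differ beyond counting error, since the change of PAICS minus that of PPAT was -0.049 (-0.16 to 0.066) with GPNA and -0.088 (-0.20 to 0.024) with BenSer, as a log2 ratio of ratios.

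The window around the PAICS start site that it shares with PPAT is shown because both genes are read outward from it, that of ATIC because this gene had the largest decrease with BenSer among the 10, and that of IMPDH1 because it stood apart from the other members. Each window runs from 250 bases before to 50 bases after a RefSeq start site in GRCh38.p14, is written 5′ to 3′ along the gene's strand, and has the E-box CACGTG, a site that MYC and related factors can bind, in capitals.
PAICS, chr4:56435502-56435801, plus strand: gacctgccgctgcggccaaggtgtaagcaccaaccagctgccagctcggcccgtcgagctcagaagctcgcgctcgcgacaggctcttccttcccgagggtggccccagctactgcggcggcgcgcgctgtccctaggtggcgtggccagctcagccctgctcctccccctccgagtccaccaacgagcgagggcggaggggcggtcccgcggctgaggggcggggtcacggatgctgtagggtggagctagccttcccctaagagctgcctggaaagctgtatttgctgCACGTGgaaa
ATIC, chr2:215311809-215312108, plus strand: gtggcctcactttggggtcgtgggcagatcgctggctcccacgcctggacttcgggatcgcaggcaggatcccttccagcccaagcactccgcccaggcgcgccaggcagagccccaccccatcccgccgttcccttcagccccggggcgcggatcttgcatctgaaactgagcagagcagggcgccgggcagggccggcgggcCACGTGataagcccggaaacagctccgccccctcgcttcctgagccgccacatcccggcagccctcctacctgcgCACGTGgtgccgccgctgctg
IMPDH1, chr7:128409933-128410232, minus strand: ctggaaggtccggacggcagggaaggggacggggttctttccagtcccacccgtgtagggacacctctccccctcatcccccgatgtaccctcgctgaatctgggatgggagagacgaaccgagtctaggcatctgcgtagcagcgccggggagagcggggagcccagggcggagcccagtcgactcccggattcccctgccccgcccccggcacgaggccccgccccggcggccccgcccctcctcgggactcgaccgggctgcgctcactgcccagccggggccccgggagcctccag

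The E-box of the PAICS window, 40 bases after the PAICS start, is the same site that lies 182 bases before the PPAT start, since both windows share 236 bases. Windows were matched for 8 of the 10 members, ADSS under its current symbol ADSS2, and all but ADSL and IMPDH2. Of their 13 windows, some of which overlap, 3 held CACGTG, those of PPAT and PAICS at the shared site and that of ATIC. ATIC has 2 copies, 46 bases before and 29 bases after its start. Of all 35116 windows of this length in the table, 7.26% held it, a share per window that was not tested against the members. The E2F motif TTTNGCGC, searched on both strands like the others, was in 1 window, a GART start, against 1.79% of all windows. Neither the palindromic NRF1 motif (1.24% of all windows) nor TGATGNAA, the core of the sites bound by ATF4 with CEBP factors (3.62%), was in a member's window. These matches describe letters in the windows and no binding was measured.

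GART carries out the second, the third and the fifth step on a single polypeptide. It had 157 and 155 CPM in the control libraries, 141 and 139 CPM with GPNA and 130.0 and 123 CPM with BenSer. Its log2 difference was -0.16 (-0.21 to -0.11) with GPNA and -0.30 (-0.35 to -0.25) with BenSer, the smallest difference with BenSer among the genes that lead to IMP.

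PFAS, which takes a second nitrogen from glutamine, was the member with the lowest level, at 19.5 and 20.02 CPM in the control libraries, 16.3 and 15.95 CPM with GPNA and 14.4 and 14.995 CPM with BenSer. Its log2 difference of -0.28 (-0.40 to -0.15) with GPNA was the largest decrease among the 10 genes in that comparison, and it was -0.40 (-0.53 to -0.28) with BenSer. Between GPNA and BenSer the levels of PFAS were close, with a log2 difference of -0.13 and an interval whose upper end was -0.00034.

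ADSL acts both before IMP, where it releases fumarate, and in the AMP branch. Its levels were 24.9 and 23.8 CPM in the control libraries, 21.1 and 22.1 CPM with GPNA and 17.9 and 18.8 CPM with BenSer, with log2 differences of -0.17 (-0.28 to -0.051) and -0.39 (-0.50 to -0.28). ATIC, which adds the last carbon from folate and closes the ring to IMP, had 30.7 CPM in both control libraries, 27.1 and 26.05 CPM with GPNA and 20.3 and 20.6 CPM with BenSer. For ATIC the log2 difference was -0.20 (-0.30 to -0.096) with GPNA and -0.56 (-0.67 to -0.46) with BenSer, a change of -33.3% in CPM. Neither gene had overlapping groups.

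In the AMP branch, ADSS joins IMP and aspartate, and it was the only member whose GPNA libraries overlapped the control. ADSS stood at 30.96 and 30.6 CPM without inhibitor, and at 32.7 and 29.9 CPM with GPNA, a log2 difference of 0.024 (-0.076 to 0.13) that turned to -0.038 without GPNA replicate 1. With BenSer, ADSS had 25.4 and 22.98 CPM, a log2 difference of -0.34 (-0.44 to -0.24). Its change exceeded that of ADSL, its partner in the branch, by 0.20 (0.041 to 0.36) with GPNA. With BenSer the same difference was 0.062 (-0.095 to 0.22), an interval that includes 0. It was -0.046 without BenSer replicate 1 and 0.17 without BenSer replicate 2. The excess with GPNA was 0.10 (-0.091 to 0.30) without GPNA replicate 1 and 0.17 (-0.022 to 0.37) without control replicate 1, so it did not clear counting error without either library.

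In the GMP branch, the IMP dehydrogenases carry out the rate-limiting step, with IMPDH2 known as the isozyme of proliferating cells and IMPDH1 as the more constitutive form. IMPDH2 (chr3:49061758-49066880, minus strand, GRCh37) had 184 and 179 CPM in the control libraries, 165 and 166 CPM with GPNA and 131 and 133 CPM with BenSer, with log2 differences of -0.14 (-0.18 to -0.093) and -0.46 (-0.50 to -0.42). IMPDH1 (chr7:128032331-128050040, minus strand, GRCh37) had 63.5 and 63.7 CPM in the control libraries, 54.2 and 56.2 CPM with GPNA and 59.02 and 63.4 CPM with BenSer. Its log2 difference was -0.20 (-0.28 to -0.13) with GPNA but -0.055 (-0.12 to 0.013) with BenSer, an interval that includes 0. The BenSer libraries decide the latter value, which was -0.0053 without BenSer replicate 1 and -0.11 without BenSer replicate 2, and it was -0.0084 with TMM scaling. IMPDH1 was the only member with a higher level with BenSer than with GPNA, by 0.15 (0.077 to 0.22). That difference was 0.20 without BenSer replicate 1 and 0.095 without BenSer replicate 2.

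The isozymes diverged with BenSer, whichever library was left out, and with GPNA the interval of their difference includes 0. The change of IMPDH1 exceeded that of IMPDH2 by 0.41 (0.32 to 0.49) with BenSer and by -0.068 (-0.15 to 0.018) with GPNA. As a share of the reads of both genes, IMPDH1 took 25.6% and 26.3% in the control libraries, 24.8% and 25.3% with GPNA and 31.1% and 32.2% with BenSer. In merged reads this was 25.9% (25.1% to 26.8%) in the control, 25.04% (24.2% to 25.9%) with GPNA and 31.7% (30.9% to 32.5%) with BenSer. The numbers of reads were 2945 of IMPDH1 and 8409 of IMPDH2 in the control, and 3923 and 8454 with BenSer.

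**Figure D2:**
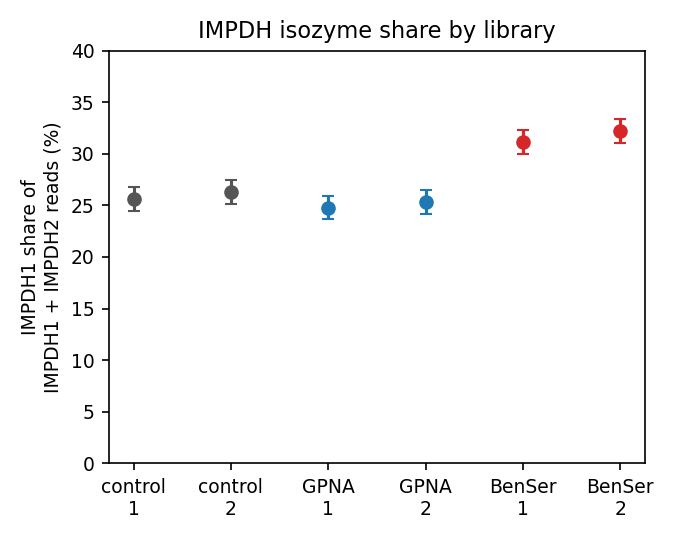
Share of IMPDH1 among the reads of IMPDH1 and IMPDH2, in percent, for each of the 6 libraries, with exact binomial intervals of 95% that cover counting error only. The control and GPNA libraries lie between 24.8% and 26.3%, and both BenSer libraries lie above them, at 31.1% and 32.2%.

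GMPS, the last enzyme of the GMP branch and the third glutamine amidotransferase of the pathway, had 65.1 and 65.4 CPM in the control libraries, 58.8 and 57.4 CPM with GPNA and 50.6 and 45.5 CPM with BenSer. The BenSer libraries of GMPS were 11.2% apart, the widest gap between libraries of 1 group among the members, yet both lay below the GPNA libraries. The log2 difference of GMPS was -0.16 (-0.24 to -0.091) with GPNA and -0.43 (-0.51 to -0.36) with BenSer. The 3 amidotransferases of the pathway, PPAT, PFAS and GMPS lay at -0.28 to -0.16 with GPNA and -0.43 to -0.35 with BenSer.

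Levels can be compared between genes only per length. Divided by the length of the Ensembl canonical transcript in GENCODE v44 lifted to GRCh37, IMPDH2 was the highest member in the control, at 110.0 CPM per kb. It was followed by GART (47.1), PAICS (41.4), IMPDH1 (24.4), ATIC (15.6), ADSS (12.04), PPAT (8.05), GMPS (7.56), ADSL (5.59) and PFAS (3.68). This order depends on the choice of transcript model, and not only between close neighbours such as PPAT and GMPS or GART and PAICS. The canonical models of PAICS, GMPS and ADSL are 6371, 8631 and 4359 bases long, that of IMPDH2 1651, and a shorter model would place a gene higher.

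**Figure D3:**
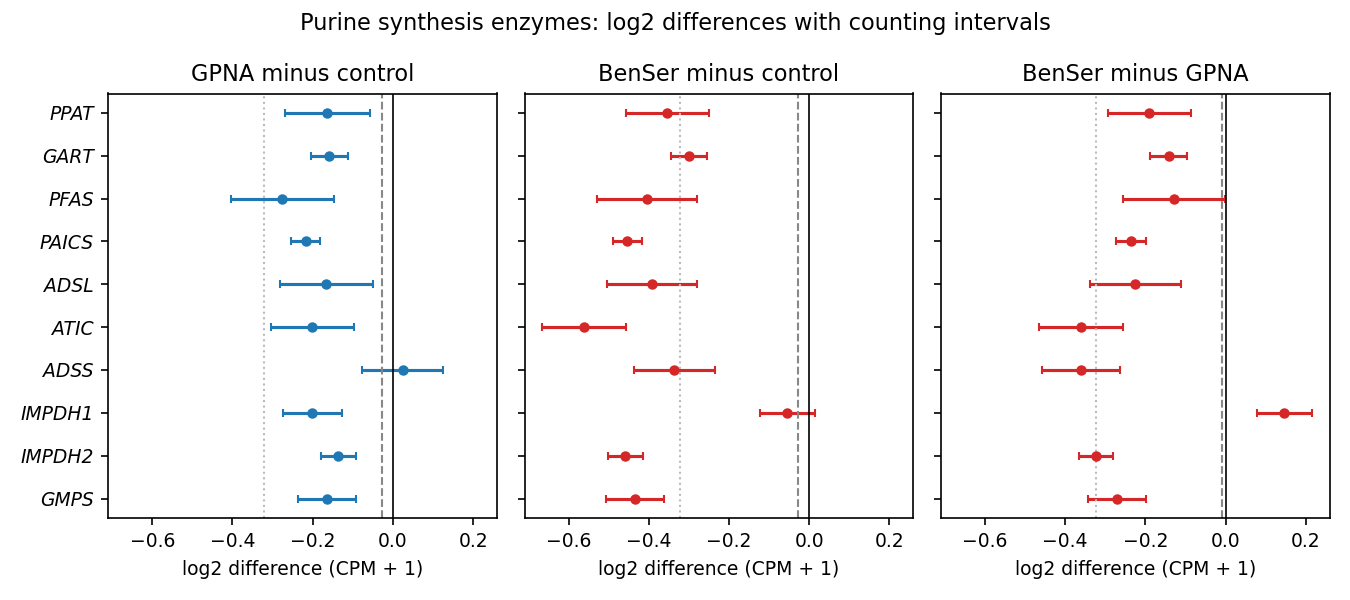
Log2 difference of CPM plus 1 for each gene in the 3 comparisons, with intervals of 95% for counting error on the merged reads; the solid line marks 0, the dashed line the median of all genes and the dotted line a log2 difference of -0.32. With GPNA 9 genes lie left of 0, as do 56.7% of all genes and 66.4% of those above 10 CPM. None passes the dotted line with GPNA (2.74% of all genes do). With BenSer 8 pass it (10.3% of all genes and 13.9% of those above 10 CPM do). IMPDH1 lies right of 0 when BenSer is set against GPNA.

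Set beside all genes tested (those that averaged 5 or more reads in at least 1 of the groups compared), the members were shifted towards lower levels. With GPNA, the median log2 difference of the 10 genes was -0.16, against -0.028 over 18828 genes. The libraries did not overlap and were lower with GPNA for 9 of the 10 members, while this held for 34.4% of all genes and for 50.1% of the genes with a mean of at least 10 CPM, the class in which all members fall. No member reached a log2 difference of -0.32, with GPNA, where 2.74% of all genes and 2.34% of those above 10 CPM did, and none was 1.5-fold lower (0.0637% of all genes were). Among these 8081 genes with at least 10 CPM the median was -0.058.

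With BenSer, the median of the 10 genes was -0.40, against -0.028 over 18976 genes and -0.042 over the 8206 genes above 10 CPM. Of the members, 8 reached a log2 difference of -0.32, where 10.3% of all genes and 13.9% of those above 10 CPM did. GART, at -0.30, lay just outside this mark, and ADSS, at -0.34, just inside it. No member was 1.5-fold lower (1.58% of all genes were), and ATIC came nearest, at -0.56 against a mark of -0.58. The libraries lay below the control without overlap for 10 of 10 members, and for 37.5% of all genes and 47.5% of those above 10 CPM.

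**Figure D4:**
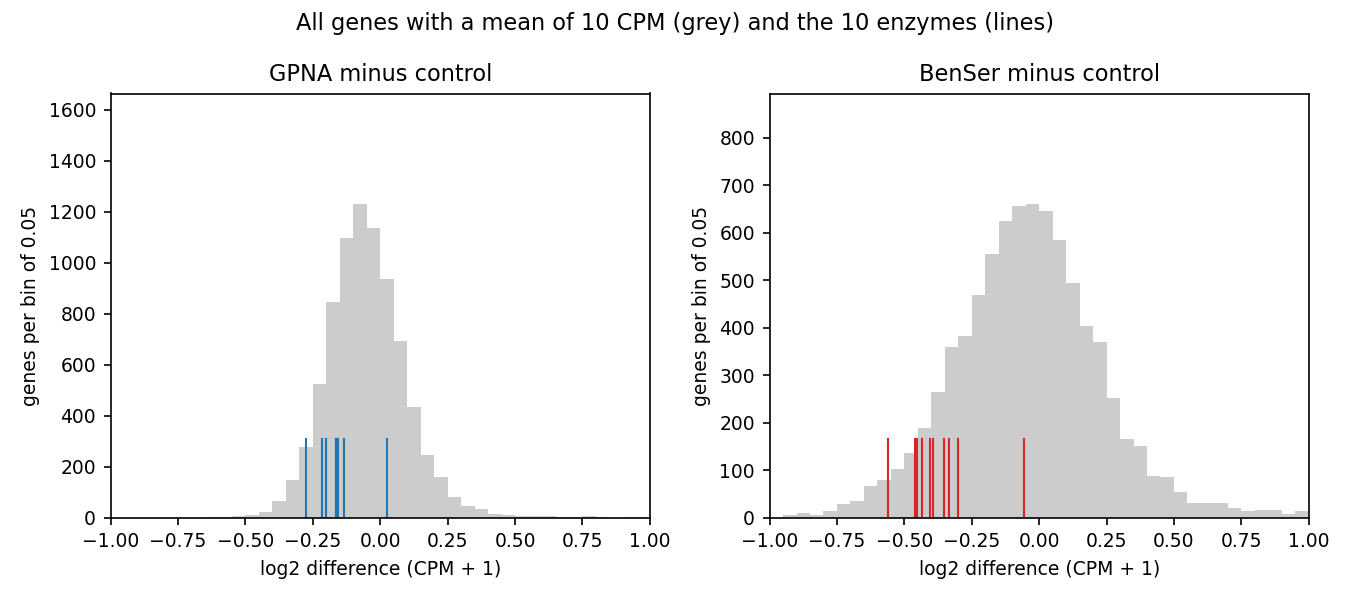
Number of genes with a mean of at least 10 CPM per bin of 0.05 in log2 difference (grey), with a coloured line for each of the 10 genes; genes beyond 1 in either direction are not drawn. With GPNA the lines run from -0.28 (PFAS) to 0.024 (ADSS), and with BenSer from -0.56 (ATIC) to -0.055 (IMPDH1), on the left side of the distribution except for ADSS with GPNA and IMPDH1 with BenSer, which lie near its centre.

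BenSer and GPNA were also compared directly, which leaves out the control but sets 10 mM of the former against 1 mM of the latter. As stated above, BenSer may also act beyond ASCT2. The median of the members was -0.23 with BenSer relative to GPNA, against -0.0093 over all 19056 genes. ATIC (-0.36), ADSS (-0.36) and IMPDH2 (-0.32) reached the mark, as did 7.08% of all genes and 7.54% of those above 10 CPM, and none was 1.5-fold lower (0.813% of all genes). The BenSer libraries lay below the GPNA libraries for 9 of 10 members, against 33.6% of all genes and 37.5% of those above 10 CPM. For IMPDH1 they lay above the GPNA libraries, as they did for 31.7% of all genes and 43.2% of those above 10 CPM.

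The genes around the pathway were grouped into lists and described by their medians and by how many had both treated libraries below both control libraries, which can be read against the shares over all genes of 34.4% with GPNA and 37.5% with BenSer, or, for genes above 10 CPM, of 50.1% and 47.5%. Both treated libraries lay above both control libraries for 22.4% of all genes with GPNA and 28.5% with BenSer (20.6% and 34.4% above 10 CPM). Of 11 genes that supply phosphoribosyl pyrophosphate, including the pentose phosphate pathway, 8 were lower in this sense with GPNA and 3 overlapped (median -0.094), and 7 were lower with BenSer, 2 higher and 2 overlapping (median -0.16). The transketolase TKT had log2 differences of -0.094 (-0.13 to -0.056) and -0.17 (-0.21 to -0.13). Salvage enzymes, which recycle bases and nucleosides, had a median of -0.058 with GPNA, with 3 of 8 lower, 4 overlapping and 1 higher, and of -0.31 with BenSer, with 7 lower and 1 higher. In this list APRT, which recovers adenine, went from 30.3 CPM in the control to 26.99 CPM with GPNA and 19.1 CPM with BenSer (log2 difference -0.64, interval -0.75 to -0.53), and adenosine kinase, ADK, had -0.13 and -0.29.

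Of 10 tested enzymes of purine breakdown and interconversion, 5 were lower and 4 higher with GPNA, and 4 were lower and 5 higher with BenSer, with a range of -0.46 to 0.45 in the latter. The medians of this list were 0.0023 and 0.0041. NT5C2, a cytosolic nucleotidase that acts on IMP and GMP, was higher, at 34.3 CPM in the control, 40.04 CPM with GPNA and 47.1 CPM with BenSer (log2 differences 0.22 and 0.45, with intervals of 0.13 to 0.31 and 0.36 to 0.53). Of 5 nucleotide kinases tested, 2 were lower with GPNA and 3 overlapped, and 4 were lower and 1 higher with BenSer. Their medians, -0.051 and -0.072, are the values of AK1, a gene of only 98 reads in the control.

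Over the 8 genes of 10-formyl-tetrahydrofolate supply tested in both comparisons the median was 0.021 with GPNA, with 3 lower, 3 higher and 2 overlapping, and -0.35 with BenSer, with 5 lower and 3 higher. This list also holds ALDH1L2, which uses up 10-formyl-tetrahydrofolate. Over all 9 genes tested with GPNA the median was 0.081, the value of MTHFS, a gene of 6 reads in the control and 10 with GPNA. MTHFD1, the cytosolic enzyme that makes this cofactor, had 111 CPM in the control, 101.3 CPM with GPNA and 80.1 CPM with BenSer (log2 differences -0.13 and -0.47).

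The list of 8 other glutamine amidotransferases had medians of 0.056 with GPNA and 0.14 with BenSer. It holds CPS1, which has the amidotransferase fold but uses free ammonia, and without that gene the medians were 0.064 and 0.17. ASNS, the asparagine synthetase and a known target of ATF4, had 29.4 CPM in the control, 48.7 CPM with GPNA and 67.9 CPM with BenSer, which is a log2 difference of 0.71 (0.62 to 0.80) and 1.18 (1.09 to 1.27). GFPT1, of hexosamine synthesis, had 0.13 and 0.10. CAD and CTPS1, which act in pyrimidine synthesis and stand on both lists, were lower, CAD by a log2 difference of -0.41 and -0.50 and CTPS1 of -0.25 and -0.67. CTPS2, the paralogue of CTPS1 on the same lists, had 0.10 (-0.0071 to 0.21) and 0.17 (0.066 to 0.27). Over the 5 genes of pyrimidine synthesis the median was -0.069 with GPNA and -0.34 with BenSer.

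**Figure D5:**
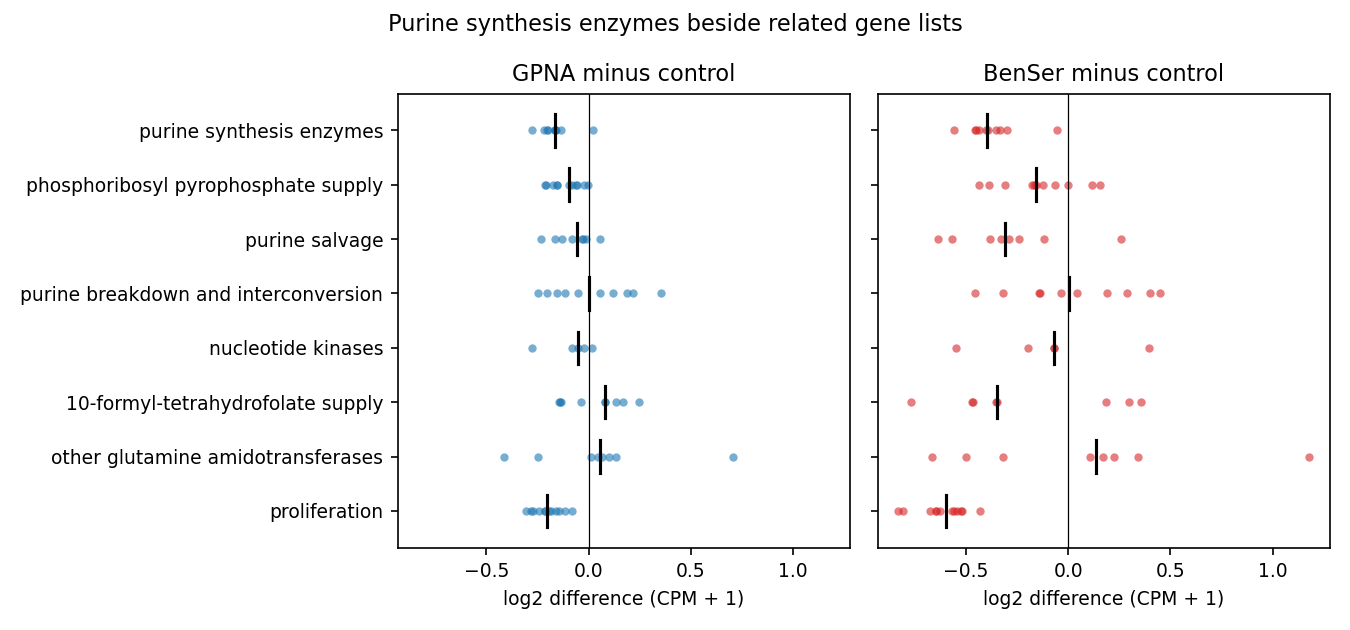
Log2 difference of each gene (points) and the median (black bar) for the 10 purine synthesis enzymes and 7 further lists, with GPNA on the left and BenSer on the right. The purine enzymes have medians of -0.16 and -0.40, the proliferation genes of -0.20 and -0.60, and the genes of purine breakdown and interconversion lie on both sides of 0.

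Proliferation genes, a list chosen with earlier results of these data known, were also lower. All 12 were lower in both comparisons, with no overlap of libraries, with a median of -0.20 with GPNA and -0.60 with BenSer and a range of -0.31 to -0.080 and -0.83 to -0.43. With BenSer 6 of them were at least 1.5-fold lower, as were 1.58% of all genes. These were MKI67 (-0.63), TOP2A (-0.65), MCM2 (-0.68), RRM1 (-0.65), RRM2 (-0.83) and TYMS (-0.81). The part of proliferation in the levels of the purine enzymes was not tested. Of the transcription factors linked to purine genes, MYC had 91.8 CPM in the control, 82.2 CPM with GPNA and 86.02 CPM with BenSer, log2 differences of -0.16 (-0.22 to -0.097) and -0.093 (-0.15 to -0.036). ATF4 was higher, by 0.31 and 0.55, while E2F1 had -0.24 and -0.22 and NRF1 -0.0045 and -0.058.

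Some members have near copies in the genome, with which reads could be shared. Of the stretches of 50 bases in the canonical transcript, 11.5% of those of IMPDH1 and 10.2% of those of PPAT also occur in transcripts of other genes, and none of those of GART or ATIC do. The shares were larger for IMPDH2 (98.8%) and ADSL (28.3%), whose exons are partly held by a longer gene model on the same strand. PAICSP1 and IMPDH1P6 were the only listed genes named as copies of members, at no more than 0.775 and 0.194 CPM. In GENCODE v44, exons of the longer models cover 98.8% of the IMPDH2 transcript and 30.6% of that of ADSL, and neither model is among the genes listed here.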

How the data were processed

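Total RNA from PC-3 cells of 3 groups was sequenced by the authors as stranded paired-end libraries. According to the methods, reads were trimmed, mapped to hg19/GRCh37.p13 with TopHat2 and counted per gene, and the submitters' processing notes also name Bowtie2, HTSeq 0.6.2p2 and DESeq. The authors deposited CPM, reads per gene scaled to the library. Multiplied by the recovered total, 100% of the values came within 0.01 of whole reads. Each of the 2 tables has 4 columns per group, while the labels name 2 libraries and the methods speak of 4 replicates of read counts and, for experiments in general, of at least 3 replicate experiments, without tying either to the columns. Columns 1 and 2 were used, and 8 column entries (6 distinct) match no label and were not analysed. The authors' comparison columns (fold changes, mean levels, p-values and false discovery rates) were not used.

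The 2 libraries of a group were set against each other by chi-square (genes holding 20 or more reads over both) and counted as 1 sample. Differences are of log2(mean CPM + 1), for genes averaging 5 or more reads in a compared group. The pseudocount understates changes of low genes. Intervals are exact Clopper-Pearson intervals at 95% on merged reads, carried to the same scale, and cover counting error only, as do the normal intervals on ratios of ratios. The members and lists were chosen with earlier results of these data known. Beside the 10 members, genes were named if at least 1.5-fold different in a comparison or the highest of their list in control CPM, which is not a level per length. MYC, E2F1, NRF1, AK1, CTPS2 and the genes of the closing section were named outside this rule, after their values were seen. Some genes that this rule names are not reported here. The background above 10 CPM and the counts of libraries that do not overlap, the differences between paired genes with 1 library left out, the list medians over shared genes or without CPS1 and the shares of genes with higher libraries were added after the data were seen. At the level of libraries, limma 3.58.1 on log2(CPM + 1) was planned, with edgeR 4.0.16 and DESeq2 1.42.0 on recovered reads as alternatives in R 4.3.3, all adjusted by Benjamini-Hochberg and tested on simulated data. They compare libraries and not treatments. Other alternatives were pseudocounts, scalings, the filter and single libraries left out. Positions come from GENCODE v44 lifted to GRCh37 and promoter windows from RefSeq. Python 3.11.15 was used with pandas 2.3.3, scipy 1.17.1, matplotlib 3.10.9 and numpy 2.4.6.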

Additional observations from a re-analysis of the deposited data

How the results depend on the processing

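The members' median log2 difference stayed negative in every comparison and setting run. It was -0.17 to -0.13 with GPNA and -0.42 to -0.33 with BenSer over pseudocounts of 0.1 and 5, TMM scaling, DESeq2 size factors and scaling to the listed genes, and -0.18 to -0.17 and -0.40 to -0.39 with single libraries left out. ADSS with GPNA, whose interval included 0, was the only gene to change sign. The count of members that reached a log2 difference of -0.32 with BenSer was 8 and ranged from 6 (TMM scaling, size factors or a pseudocount of 5) to 9 (without BenSer replicate 1). With BenSer against GPNA it was 3, and fell to 2 with TMM scaling, size factors or a left-out library (3 without BenSer replicate 1) and to 0 with a pseudocount of 5. A pseudocount of 0.1 raised the number of all genes at least 1.5-fold different from 76 to 1531 with GPNA, from 671 to 2602 with BenSer and from 356 to 2173 between the treatments, since it lets genes of few reads pass.

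At the level of libraries, limma called 545 genes at an adjusted p under 0.05 with GPNA, where edgeR called 3608, DESeq2 1278 and limma with a replicate block 3. With BenSer limma called 5278 genes and 4534 with the replicate block, and between the treatments 4177 and 3267, where edgeR called 6600. The cause of these differences was not tested. Libraries of the same number did not deviate together (correlations across genes of 0.012 to 0.021), so the numbers do not pair them. The spread between cultures was not measured if, as counted here, the libraries of a group are 1 sample. Merged reads of PFAS, the lowest member, were 827 to 941.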

Other observations

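Within the list of 10-formyl-tetrahydrofolate supply, 2 cytosolic and 3 of 5 mitochondrial enzymes lay on opposite sides of the control. The split was noticed after the values were seen and was not tested. The cytosolic MTHFD1 and SHMT1 were lower, SHMT1 at -0.15 with GPNA and -0.36 with BenSer on the log2 scale. The mitochondrial SHMT2, MTHFD2 and MTHFD1L were higher, at 0.17, 0.25 and 0.14 with GPNA and at 0.30, 0.36 and 0.18 with BenSer. Of the other mitochondrial genes of the list, MTHFD2L did not follow, at -0.14 (-0.30 to 0.015) and -0.47 (-0.62 to -0.31). ALDH1L2, which uses up this cofactor and had 94 to 119 reads per group, was at 0.082 (-0.18 to 0.37) and -0.35 (-0.58 to -0.082).

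Also picked after their values were seen, the phosphoribosyl pyrophosphate synthetases PRPS1 and PRPS2, which make the substrate of PPAT, had log2 differences of -0.21 and -0.15 with GPNA and of -0.44 and -0.39 with BenSer. HPRT1, which salvages hypoxanthine and guanine, had -0.23 and -0.57. NT5E, the nucleotidase at the cell surface that makes adenosine from AMP, was higher, at 0.35 and 0.40, and NME1, a nucleoside diphosphate kinase, had -0.28 and -0.55, while AK4 of the same list had 0.015 (-0.052 to 0.082) and 0.40 (0.34 to 0.46).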
